A study of Capra hircus with 11 samples.

Results

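At day 8 of the induction of goat ear fibroblasts towards mammary epithelial cells, 465 of 10152 cells (4.58%, 95% Clopper-Pearson interval 4.18 to 5.01) held at least 10 summed UMIs of COL1A1, COL1A2 and COL3A1. These genes encode the main chains of type I and type III collagen. A UMI is a molecular identifier, counted once per captured transcript. These 465 collagen-positive cells were compared with the other 9687 cells of the day 8 table, with 4066 day 4 cells that passed the same collagen limit and held fewer than 5 summed UMIs of the basal keratins KRT5 and KRT14, and with 9831 day 0 cells chosen in the same way. The members were chosen by their UMIs of these 3 genes, so every difference in collagen level and in the genes that go with it is given as a description.

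The series holds 41854 cells of Capra hircus in 5 tables, 1 for each of 5 groups of 11 labelled samples. Day 0 (BFRTV0d, 3 samples) is the ear fibroblasts, day 4 (BFRTV4d, 3 samples) the fibroblasts after 4 days in BFRTV induction medium on Matrigel-coated plates, and day 8 (BFRTV8d, 2 samples in the labels, 3 replicates in the design text) the cultures after 8 days in that medium. The labels name no allele, animal age or number of animals for these groups and do not spell out the letters BFRTV. Each table pools its samples with no map from cells to samples, so each group was treated as 1 library: no difference has a replicate check or a test, and every interval covers counting error only. The day 8 samples are labelled as induced mammary epithelial cells, and the libraries were droplet libraries of 10x Genomics that read the 3′ ends of transcripts.

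Fibroblasts make and remodel connective tissue. They secrete fibrillar collagens, which assemble into fibres with the help of cross-linking enzymes and small leucine-rich proteoglycans, and they carry receptors for platelet-derived growth factors. Mammary epithelium instead holds keratins and cell junction proteins, with basal cells rich in KRT5 and KRT14 and luminal cells rich in simple keratins.

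The members differed widely in keratin, which the collagen limit did not use. Of the 465 cells, 123 held fewer than 5 UMIs of KRT5 and KRT14, 205 held 5 to 19 and 137 held 20 or more. The 328 members under 20 and the 137 members at 20 or more are given apart where the result differs between them; this limit was chosen after the data were seen. Median UMIs per cell were 11716 under 20 keratin UMIs and 18302 at 20 or more, against 8957 in the other day 8 cells, 9347 at day 4 and 9890 at day 0.

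The day 8 table had 147 barcodes in common with day 0, 143 with day 4, 90 with CiMECs (the passaged induced cells) and 74 with GMECs (goat mammary epithelial cells). Among the members, 8 carried a barcode of the day 0 table, 9 one of day 4, 2 one of CiMECs and 6 one of GMECs, and 8 and 6 of those at day 0 and day 4 were collagen-positive there as well. Over the whole tables, 94.2% of day 0 cells and 50.4% of day 4 cells passed the collagen limit, so nothing is read from these counts. Cells of 2 tables with 1 barcode were kept.

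**Figure D1:**
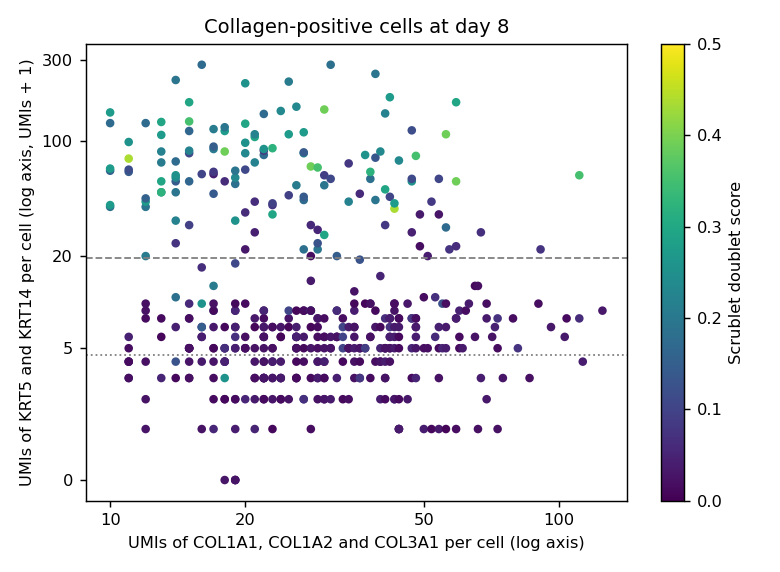
Each point is 1 of the 465 members, placed by its UMIs of the 3 collagen genes (horizontal log axis) and of KRT5 and KRT14 (vertical log axis, UMIs + 1) and coloured by its Scrublet doublet score. The dotted and dashed lines stand at the limits of 5 and 20 keratin UMIs: 328 cells lie under the dashed line with mostly dark, low scores and 137 above it with mostly higher scores.

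The 137 keratin-rich members stood apart from the rest in measures that doublets (2 cells in 1 droplet) raise. Their median Scrublet score, a score for likeness to simulated doublets, was 0.194, against 0.0256 in the 328 members under 20 keratin UMIs. The score that the caller set as its limit at day 4 was passed by 49 of 137 and by 2 of 328, and 70 of 137 (51.1%) held over 2 times the table's median UMIs, against 19 of 328. The other day 8 cells had a median score of 0.0732, with 327 of 9687 over the score limit and 505 over 2 times the median UMIs. The collagen and keratin limits both counted raw UMIs, which deeper cells pass more easily. No cell was removed as a doublet, and the part of doublets in the results was not tested.

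Genes of the other compartment were measured in both kinds of member. Over 52 genes of the epithelial lists with at least 50 CPM (counts scaled to a common total of 1000000 UMIs, summed over a group) in the other day 8 cells, the level in the members under 20 keratin UMIs had a median of 8.41% of that in the other cells (quartiles 6.65 to 17.8, range 3.59 to 86.3). In the keratin-rich members the median was 58.4% (quartiles 47.2 to 65). For 33 matrix and fibroblast genes picked for at least 50 CPM in the keratin-low members and a level 4-fold over the other day 8 cells, the keratin-rich members held a median of 57.9% of that level (range 41.4 to 87.6) and the other day 8 cells 2.69%. Both sets of genes were picked for a high level in the group set at 100%, and the 4-fold limit also kept the other cells low, so the ends of each scale were fixed and these percentages are a description. Doublets, free RNA and expression of both kinds of gene in 1 cell cannot be told apart by these levels.

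**Figure D2:**
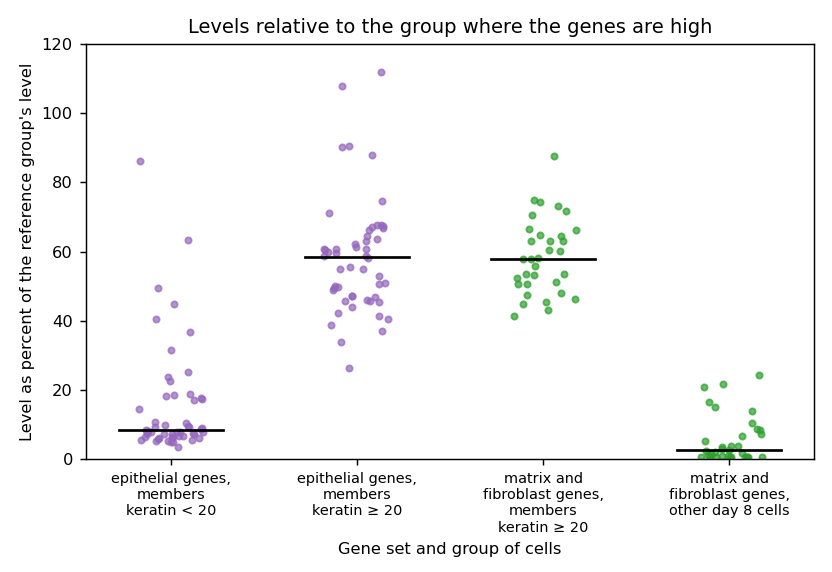
Points are genes and black bars medians. Epithelial list genes (purple) are drawn as percent of their level in the other day 8 cells, with medians of 8.41% and 58.4% in members under 20 and at 20 or more keratin UMIs; matrix and fibroblast genes (green) are drawn as percent of their level in the members under 20 keratin UMIs, with medians of 57.9% in the keratin-rich members and 2.69% in the other day 8 cells.

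Most members held UMIs of all 3 collagens. COL1A1, COL1A2 and COL3A1 each had at least 1 UMI in 433 of 465 members (93.1%), and 2 members had UMIs of only 1 of them. Members were chosen by the sum of these 3 genes, so these counts follow in part from the rule and are a description. Per member, COL1A1 ranged from 0 to 56 UMIs with a median of 6, COL1A2 from 0 to 39 with a median of 5, and COL3A1 from 1 to 65 with a median of 15. Just inside the limit, 17 cells held 10 to 11 collagen UMIs and 10 of them held at least 20 keratin UMIs; just outside, 21 cells held 8 to 9 and 12 of them held at least 20 keratin UMIs. At 0 collagen UMIs stood 8325 of the day 8 cells.

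In level, COL1A1 stood at 563 CPM in the members, 2.8 in the other day 8 cells, 1078 at day 4 and 4340 at day 0. COL1A2 stood at 505 CPM in the members, 4.28 in the other day 8 cells, 825 at day 4 and 2223 at day 0. COL3A1 stood at 1199.5 CPM in the members (1505 in those under 20 keratin UMIs), 11.9 in the other day 8 cells, 1387 at day 4 and 1795 at day 0. The collagen limit chose the collagen-positive groups and capped the other day 8 cells below 10 UMIs a cell, so nothing is read from the order of these levels.

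Type III collagen held the larger part of the collagen UMIs at day 8. COL3A1 made up 52.9% (52.1 to 53.7) of the UMIs of the 3 genes in the members, 42.2% (41.9 to 42.4) at day 4 and 21.5% (21.4 to 21.6) at day 0. COL1A1 made up 24.8% (24.1 to 25.5), 32.8% (32.5 to 33) and 51.9% (51.8 to 52) in the same order. The members under 20 keratin UMIs gave 53.7% (52.8 to 54.7) COL3A1 and those at 20 or more 50.5% (48.9 to 52.1), and the 1838 collagen UMIs spread over the other day 8 cells held 62.7% (60.5 to 64.9). The order of the 3 time points was the same with members under 20 and at 20 or more keratin UMIs. It did depend on the choice of day 4 cells. In the 4789 keratin-positive day 4 cells, which the keratin limit left out, COL3A1 made up 54.5% (53 to 55.9) of 4690 collagen UMIs. That share was above the 52.9% of the members and below the 62.7% of the other day 8 cells. The rise from day 4 to the members is therefore given only for the day 4 cells that the limits kept.

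**Figure D3:**
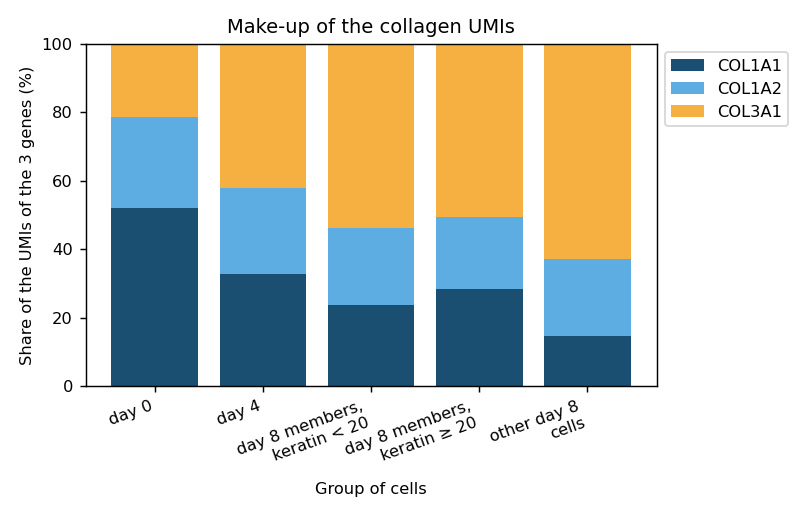
Bars give the share of the summed UMIs of COL1A1, COL1A2 and COL3A1 taken by each gene, in percent, for the collagen-positive cells of day 0 and day 4, the day 8 members under 20 and at 20 or more keratin UMIs, and the other day 8 cells. The COL3A1 part is 21.5% at day 0, 42.2% at day 4 and 53.7% in the keratin-low members.

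Against the other day 8 cells, 383 of 8497 genes were at least 4-fold higher in the members (4.51%) and 177 were at least 4-fold lower (2.08%). Against day 4 the counts were 289 higher (3.71%) and 9 lower (0.116%) of 7791 genes, and against day 0 they were 719 higher (7.98%) and 904 lower (10%) of 9009. A gene entered a comparison when 1 of the 2 groups reached 10 CPM. With members under 20 keratin UMIs alone, 484 (5.64%) and 696 (8.12%) of 8574 genes passed against the other day 8 cells, 101 (1.34%) and 6 (0.0798%) of 7522 against day 4, and 587 (6.62%) and 1039 (11.7%) of 8861 against day 0. With the 123 members under 5 keratin UMIs they were 504 (5.82%) and 749 (8.65%) of 8662, 104 (1.36%) and 15 (0.196%) of 7637, and 631 (7.06%) and 1136 (12.7%) of 8936. Fewest genes passed against day 4. With no keratin limit on the day 4 cells, 106 genes were higher and 13 lower, and without cells of over 2 times their table's median UMIs 192 and 6. The share of passing genes that were higher was 68.4% against the other day 8 cells, 41% with members under 20 keratin UMIs and 83.4% with trimmed-mean scaling; against day 0 it was 44.3% and 55.5% with that scaling.

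The median over all genes compared was -0.24 on the log2 scale against the other day 8 cells, 0.21 against day 4 and -0.48 against day 0, and scaling by trimmed means (TMM) moved it by 0.22, -0.27 and 0.24. Leaving genes over 1% of UMIs out of the totals moved it by 0.20, -0.16 and 0.27. Each gene list below is therefore given by its median minus the median of all genes in that comparison, called its relative median, and by its count of genes at least 2-fold apart. A list gene is counted only if it reached 10 CPM in 1 of the 2 groups, so a gene that is low in both is left out and the counts do not cover whole lists. Among all genes compared, 8.36% lay 2-fold or more above and 12.7% as far below the other day 8 cells, 9.91% and 1.59% against day 4, and 16% and 32.6% against day 0. With members under 20 keratin UMIs these shares were 10.1% and 19.3%, 6.45% and 1.36%, and 14.1% and 35.4%.

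The chains of type VI collagen were far above the other day 8 cells, below day 4 and furthest below day 0. COL6A1, COL6A2 and COL6A3 encode this beaded filament around cells. COL6A3 stood at 249 CPM in the members, 2.2 in the other day 8 cells, 310.2 at day 4 and 1469 at day 0. The members were 113-fold higher (98 to 131) than the other day 8 cells and 5.9-fold lower (5.62 to 6.2) than day 0. COL6A1 stood at 169.5 CPM in the members, 1.64 in the other day 8 cells, 273 at day 4 and 888 at day 0, and COL6A2 at 78 CPM in the members, 0.92 in the other day 8 cells, 143 at day 4 and 1056 at day 0. All 3 chains lay above the other day 8 cells and below both earlier time points, with the widest distance from day 0 for COL6A2, 13.5-fold lower (12.4 to 14.8). The keratin-rich members held 57.9%, 66.3% and 53.5% of the COL6A1, COL6A2 and COL6A3 levels of members under 20 keratin UMIs. The distance from day 4 is therefore smaller in members under 20 keratin UMIs, and for COL6A3 these lay near day 4.

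COL5A2, a chain of type V collagen that sits inside type I fibres, stood at 330 CPM in the members (404 in those under 20 keratin UMIs), 35.5 in the other day 8 cells, 404 at day 4 and 636 at day 0. COL14A1, a fibril-associated collagen, was 29.1-fold higher (25 to 34) than in the other day 8 cells and 2.69-fold lower (2.46 to 2.94) than at day 4. COL8A1, a short-chain collagen of vessel walls, stood at 541 CPM in the members (673 in those under 20 keratin UMIs), 36.2 in the other day 8 cells, 642 at day 4 and 87.8 at day 0. COL5A3 was 26.7-fold lower (19.4 to 37.7) than at day 0, at 5.8 against 155 CPM. COL17A1 and COL18A1, which epithelia make, were lower than in the other day 8 cells, at 101 against 301 CPM and 35.4 against 116 CPM, and in members under 20 keratin UMIs they stood at 30.6 and 11.4 CPM.

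In the list of other fibrillar and fibril-associated collagens, 3 of 4 genes of the list were 2-fold or more higher and 0 as much lower, with a median of 3.69 relative to all genes against the other day 8 cells. Against day 4 and day 0 its relative medians were -0.79 over 4 genes and -0.26 over 6. The list of type VI and sheet-forming collagens had relative medians of 0.35, -0.46 and 1.64 against the 3 groups, each over 9 genes with values on both sides of 0. Without the subtraction, the median against day 0 was 1.17, and it turned to -2.48 with a minimum of 50 CPM. The relative medians were 2.41, -0.08 and 1.76 with members under 20 keratin UMIs.

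Genes that make and cross-link collagen were higher than in the other day 8 cells for 14 of 27 list members at 2-fold (relative median 1.26), near the day 4 level (relative median -0.43, 1 higher and 2 lower of 27) and lower than at day 0 for 17 of 28 (relative median -0.86, none higher). LOX, the oxidase that cross-links collagen, stood at 156 CPM in the members (187 in those under 20 keratin UMIs), 4.19 in the other day 8 cells, 163 at day 4 and 80.3 at day 0. PCOLCE, which helps to trim procollagen, stood at 126 CPM in the members, 4.07 in the other day 8 cells, 183 at day 4 and 238 at day 0. SERPINH1, the collagen chaperone of the endoplasmic reticulum, was 5.45-fold lower (5.13 to 5.79) than at day 0, at 164 against 892 CPM. Of these 3 genes, LOX lay above day 0.

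Small leucine-rich proteoglycans, which bind and space collagen fibrils, were the list with the highest median against the other day 8 cells. Of 11 listed genes, 7 reached the minimum level and 7 of these were at least 2-fold higher, with a relative median of 7.27. DCN (decorin) stood at 195 CPM in the members (254 in those under 20 keratin UMIs), 1.45 in the other day 8 cells, 248 at day 4 and 215 at day 0, 135-fold higher (113 to 161) than the other day 8 cells. LUM (lumican) stood at 518 CPM in the members (655 in those under 20 keratin UMIs), 4.71 in the other day 8 cells, 596 at day 4 and 794 at day 0, and FMOD (fibromodulin) at 109 CPM in the members, 0.837 in the other day 8 cells, 141 at day 4 and 137 at day 0. These 3 genes were near the day 4 level in the members under 20 keratin UMIs, at 254, 655 and 135 CPM.

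BGN (biglycan) was lower than at day 0, 4.21-fold lower (3.99 to 4.44), while OGN (osteoglycin) and ASPN (asporin) were higher, at 18.9 against 0.128 CPM and 24 against 1.93 CPM. Over the list the relative medians were -0.56 against day 4 and 0.34 against day 0, and without the subtraction they crossed 0 across the settings tried (from -0.60 to 0.05 and from -0.33 to 0.64).

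Other matrix genes followed. MGP, an inhibitor of matrix calcification, stood at 958 CPM in the members, 13.4 in the other day 8 cells, 482 at day 4 and 2.33 at day 0: it was 71.3-fold higher (67.1 to 75.7) than the other day 8 cells and 411-fold higher (361 to 470.3) than day 0. FN1 (fibronectin) stood at 1940.1 CPM in the members, 239.7 in the other day 8 cells, 1394 at day 4 and 881 at day 0. ELN (elastin) was 16.3-fold lower (10.6 to 26.8) than at day 0 and DPT (dermatopontin) 23.2-fold lower (11.2 to 57.8). Compared with the other day 8 cells, 15 of 21 genes of the list were 2-fold or more higher and 2 as much lower, with a median of 2.74 relative to all genes; the relative medians against day 4 and day 0 were -0.19 and -0.65. Within this list MGP and FN1 therefore lay above day 0 and ELN and DPT below it.

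Receptors and surface proteins of fibroblasts were found in the members. PDGFRA and PDGFRB encode receptors for platelet-derived growth factors. PDGFRA stood at 118 CPM in the members, 2.19 in the other day 8 cells, 181 at day 4 and 50.5 at day 0, and PDGFRB at 26.4 CPM in the members (29.1 in those under 20 keratin UMIs), 0.413 in the other day 8 cells, 34.8 at day 4 and 28.8 at day 0. Both were above the other day 8 cells, 53.7-fold higher (46.1 to 62.8) and 63.9-fold higher (45.1 to 92.5). CD44, the hyaluronan receptor, stood at 1777 CPM in the members, 559 in the other day 8 cells, 1462 at day 4 and 119.9 at day 0, and S100A4, a calcium-binding protein, went the other way at 571 CPM in the members (235 in those under 20 keratin UMIs), 2571 in the other day 8 cells, 394 at day 4 and 6495 at day 0. Set beside the other day 8 cells, 16 of 25 genes of the list were 2-fold or more higher and 1 as much lower, with a median of 2.55 relative to all genes, and against day 4 and day 0 the relative medians were -0.53 and -0.07.

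PRRX1, a homeobox factor of limb and skin mesenchyme, stood at 1386 CPM in the members (1761 in those under 20 keratin UMIs), 14.1 in the other day 8 cells, 1576 at day 4 and 1032 at day 0. ZEB2 was 85.4-fold higher (58.4 to 128) than in the other day 8 cells. NR2F1, an orphan nuclear receptor, stood at 95.8 CPM in the members, 0.847 in the other day 8 cells, 64.6 at day 4 and 7.96 at day 0, above day 0 by 12-fold, while TWIST2 at 29.1 CPM and MEOX2 at 4.27 CPM lay below the day 0 levels of 150.3 and 53.4 CPM. KLF4 was 4.07-fold higher (3.58 to 4.61) than at day 4. Over the mesenchymal factors, 12 of 22 were at least 2-fold higher and 3 lower than in the other day 8 cells, and the relative medians were 1.60, 0.07 and 0.27 against the 3 groups.

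**Figure D4:**
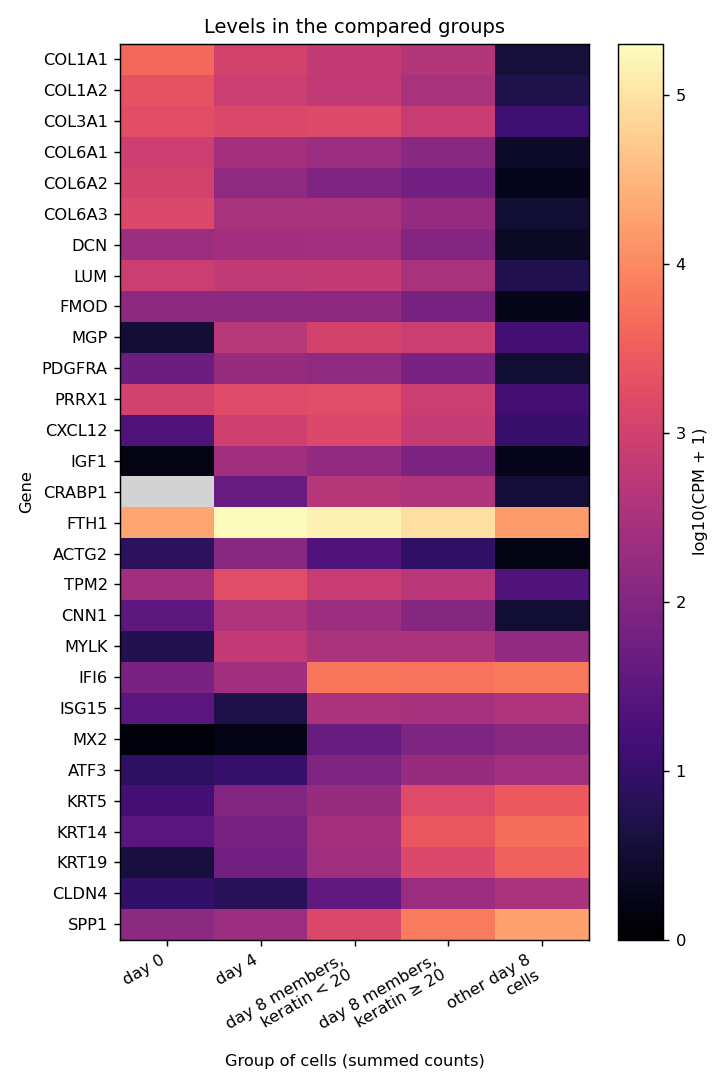
Colour gives the level of each gene as log10(CPM + 1) in summed counts of 5 groups of cells; grey marks a gene not listed at day 0. The genes from COL1A1 to FMOD are darkest in the other day 8 cells, MGP is darkest at day 0, and IFI6, ISG15 and MX2 are brighter in the 3 day 8 columns than at day 0 and day 4.

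Secreted signals set the members apart from day 0 as well as from the other day 8 cells. CXCL12, the ligand of CXCR4, stood at 1145 CPM in the members, 10.1 in the other day 8 cells, 952 at day 4 and 20.9 at day 0; it was 114-fold higher (107 to 122) than the other day 8 cells and 54.7-fold higher (52.1 to 57.4) than day 0. CFB, a complement factor, was 112-fold higher (79.5 to 162) than at day 0, at 41.8 CPM. PTGES, a prostaglandin E synthase, stood at 3007 CPM in the members, 1112 in the other day 8 cells, 2514 at day 4 and 64.4 at day 0. Against day 0, 12 of 16 genes of the list were 2-fold or more higher and 1 as much lower, with a median of 3.55 relative to all genes, and against day 4 8 of 16 were at least 2-fold higher and 0 lower (relative median 0.71). CCL20, a chemokine for CCR6, was 6.1-fold higher (5.73 to 6.49) than at day 4, and it stood at 324 CPM in the other day 8 cells against 309 in the members.

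IGF1 stood at 126 CPM in the members, 0.878 in the other day 8 cells, 229 at day 4 and 0.491 at day 0, which made it 143-fold higher (115 to 182) than the other day 8 cells and 257-fold higher (193 to 348) than day 0. FGF7, a growth factor that acts on epithelia, stood at 384 CPM in the members, 3.92 in the other day 8 cells, 356 at day 4 and 636 at day 0, and PTN (pleiotrophin) at 828 CPM in the members (1083 in those under 20 keratin UMIs), 22.6 in the other day 8 cells, 872 at day 4 and 768 at day 0. AREG, HBEGF and NRG1, ligands of the EGF receptor family, were lower than in the other day 8 cells at 78, 64.8 and 34.2 CPM, and at 18.7, 31.3 and 11.9 CPM in the members under 20 keratin UMIs. In this list 12 of 20 genes were at least 2-fold higher and 5 lower than in the other day 8 cells, and its relative medians were 1.83, -0.10 and 1.11 against the 3 groups. KITLG and VEGFC were lower than at day 0, each at least 4-fold.

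CRABP1, which binds retinoic acid in the cytoplasm, was set apart from all 3 groups. It stood at 412 CPM in the members, 2.48 in the other day 8 cells, 43.4 at day 4 and was not listed at day 0, where a gene had to have UMIs in at least 11 cells to be listed. With 11 UMIs taken as the day 0 level, the ratio to day 0 was 3811-fold. The listing limit counts cells and not UMIs, so a gene not listed could hold more, and this ratio is no lower bound. The members were 166-fold higher (146 to 190.4) than the other day 8 cells and 9.5-fold higher (8.94 to 10.1) than day 4. The level was 434 CPM in members under 20 keratin UMIs and 378 CPM at 20 or more. CRABP2 was lower in the members than in the other day 8 cells, at 191 against 594 CPM. RARB, a retinoic acid receptor, stood at 34.5 CPM in the members (45 in those under 20 keratin UMIs), 5 in the other day 8 cells, 40.2 at day 4 and 0.491 at day 0, and DHRS3, a retinal reductase, at 1295 CPM in the members (1368 in those under 20 keratin UMIs), 1347 in the other day 8 cells, 668 at day 4 and 0.963 at day 0. Over the retinoid list the relative medians were 0.68, 0.57 and 1.29, with 4 of 10 genes at least 2-fold higher and 0 lower than at day 4.

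FTH1, the heavy chain of the iron store ferritin, took a large part of all UMIs of the members. It stood at 126078 CPM in the members, 15697 in the other day 8 cells, 176580 at day 4 and 20872 at day 0. The members were 8.03-fold higher (8.01 to 8.05) than the other day 8 cells, at 148689 CPM under 20 keratin UMIs and 91657 CPM at 20 or more. Ferritin genes have near-identical copies in mammals, so this value may hold reads of more than 1 copy. GPX3, a secreted glutathione peroxidase, stood at 1072 CPM in the members, 29.7 in the other day 8 cells, 606 at day 4 and 47.7 at day 0, while GPX2, its epithelial relative, stood at 295 CPM in the members (103 in those under 20 keratin UMIs), 1178 in the other day 8 cells, 12.1 at day 4 and 0.0688 at day 0 and at 103 CPM in the members under 20 keratin UMIs. The list of oxidative stress and iron genes had relative medians of 0.55, 0.22 and 1.10, with 4 of 21 genes at least 2-fold higher and 2 lower than in the other day 8 cells.

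Contractile genes, which smooth muscle and activated fibroblasts share, were lower than at day 4. Of 27 genes, 13 were at least 2-fold lower and 0 higher (relative median -1.14), and with members under 20 keratin UMIs the counts were 8 and 0 of 26 (relative median -1.02). ACTG2, a smooth muscle actin, stood at 15.6 CPM in the members, 0.548 in the other day 8 cells, 122 at day 4 and 6.73 at day 0. TPM2, a tropomyosin, stood at 652 CPM in the members, 20.3 in the other day 8 cells, 1721 at day 4 and 247 at day 0, and CNN1 (calponin) at 174 CPM in the members, 2.15 in the other day 8 cells, 383 at day 4 and 30.4 at day 0. Each of the 3 was above the other day 8 cells and below day 4.

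Set against day 0, the same list had a relative median of 0.94, with 10 of 25 genes at least 2-fold higher and 5 lower. MYLK (myosin light chain kinase) stood at 327 CPM in the members, 149 in the other day 8 cells, 623 at day 4 and 4.83 at day 0, and MYH11 (smooth muscle myosin) at 33 CPM in the members, 3.58 in the other day 8 cells, 54.6 at day 4 and was not listed at day 0. TAGLN was 2.18-fold lower (2.11 to 2.25) than at day 0, and TGFB1I1 7.67-fold lower (6.45 to 9.2). Against the other day 8 cells 15 of 25 contractile genes were at least 2-fold higher and 1 lower (relative median 1.37). Other genes with low ratios against day 4 were DPYSL3, PRKCDBP and ITGA5, 3.46-fold lower (3.04 to 3.96), 3.28-fold lower (2.87 to 3.76) and 2.64-fold lower (2.42 to 2.89).

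By their list medians, the interferon response genes were at like levels in the members and the other day 8 cells and far below both at day 4 and day 0. Against day 4, 30 of 33 were at least 2-fold higher and 0 lower (relative median 2.37), and against day 0 26 of 33 and 0 (relative median 2.74). Against the other day 8 cells 0 were higher and 5 lower (relative median -0.25). With members under 20 keratin UMIs, 29 of 31 were at least 2-fold higher than at day 4 (relative median 2.69). Against the other day 8 cells 0 of 33 were then higher and 9 lower (relative median -0.37), beside 10.1% and 19.3% of all genes. The summed level of the list was 8085 CPM in the members, 9326 in the other day 8 cells, 563 at day 4 and 419 at day 0. In the members and the other day 8 cells most of this sum was IFI6. Each time point is 1 library, and day and library cannot be told apart.

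IFI6, a mitochondrial protein that interferon induces, stood at 6158 CPM in the members, 6745 in the other day 8 cells, 245 at day 4 and 76.4 at day 0, 25.2-fold higher (24.6 to 25.7) than day 4. ISG15, a ubiquitin-like modifier, stood at 319 CPM in the members, 373 in the other day 8 cells, 3.89 at day 4 and 27.3 at day 0, and MX2, a dynamin-like GTPase, at 60 CPM in the members, 125 in the other day 8 cells, 0.703 at day 4 and 0.314 at day 0. RSAD2 and BST2, which act against viruses, were 78-fold higher (53.4 to 118) and 22.9-fold higher (18.8 to 28.1) than at day 4. For ISG15 the level was 335 CPM under 20 keratin UMIs and 294 at 20 or more, and for IFI6 6356 and 5856 CPM.

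Early response genes, which cells switch on within minutes of a stimulus, also lay nearer to the other day 8 cells than to day 4 by their list medians. Against day 4, 13 of 21 genes of the list were 2-fold or more higher and 0 as much lower, with a median of 1.40 relative to all genes; with members under 20 keratin UMIs it was 13 of 21 higher and 0 lower, relative median 1.06. EGR1, a zinc finger factor, stood at 477 CPM in the members, 717 in the other day 8 cells, 76.4 at day 4 and 77.1 at day 0, and ATF3, a stress-induced factor, at 127 CPM in the members, 254 in the other day 8 cells, 8.89 at day 4 and 7.01 at day 0. FOS, which the dissociation of tissue can also induce, stood at 216 CPM in the members (109 in those under 20 keratin UMIs), 646 in the other day 8 cells, 35.9 at day 4 and 57.5 at day 0 and at 109 CPM in the members under 20 keratin UMIs. NR4A1 was 6.58-fold higher (5.77 to 7.49) than in the other day 8 cells. Against the other day 8 cells and day 0 the relative medians of the list were -0.35 and 1.76.

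Cell cycle genes were far lower than at day 0. Of the S phase list, 29 of 30 were at least 2-fold lower and 0 higher (relative median -2.08), and of the list for G2 and mitosis 26 of 27 and 0 (relative median -2.61). MCM4, a helicase subunit, stood at 1.53 CPM in the members, 4.58 in the other day 8 cells, 3.87 at day 4 and 102 at day 0. MKI67, a marker of cycling cells, stood at 0.915 CPM in the members (0.506 in those under 20 keratin UMIs), 6.11 in the other day 8 cells, 5.22 at day 4 and 43.6 at day 0, and RRM2, a subunit of ribonucleotide reductase, at 0.458 CPM in the members (0 in those under 20 keratin UMIs), 3.19 in the other day 8 cells, 2.38 at day 4 and 98.9 at day 0.

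Against day 4 only 9 of 30 genes of each list reached the minimum level, which MCM4, MKI67 and RRM2 did not. The relative medians of those genes were 0.34 for S phase and -0.65 for G2 and mitosis, and -0.03 and -0.96 with members under 20 keratin UMIs. Relative to the other day 8 cells 6 of 12 and 10 of 13 genes were at least 2-fold lower. CDKN1A, which halts the cycle, stood at 746 CPM in the members, 273 in the other day 8 cells, 371 at day 4 and 137 at day 0. GDF15, a stress cytokine, was 6.47-fold higher (5.73 to 7.31) than at day 4. The list of cell cycle inhibitors had relative medians of 0.14, 0.69 and 1.26, with 11 of 22 genes at least 2-fold higher than at day 4 and 0 lower.

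Epithelial genes that the keratin limits did not use also differed between keratin-low and keratin-rich members. KRT14, which the limits used, stood at 272 CPM in members under 20 keratin UMIs, 2474 in those at 20 or more and 4897 in the other day 8 cells, against 69.4 at day 4, where the limit on keratin held it low. KRT19, a simple keratin outside that limit, stood at 231, 1435, 3466 and 58.4 CPM in the same order. CLDN4, a tight junction claudin, stood at 36.1, 203, 330.3 and 6 CPM. KRT19 and CLDN4 had the same order of groups. SPP1 (osteopontin), which mammary epithelium secretes, stood at 1347, 7064, 18232 and 202 CPM.

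Against the other day 8 cells, the members were at least 2-fold lower for 16 of 19 basal genes, 25 of 27 junction genes, 19 of 20 luminal genes, 7 of 8 secretory genes and 5 of 6 keratinocyte genes, with relative medians of -1.43, -1.61, -1.78, -1.59 and -1.92, and -3.07, -3.13, -3.61, -3.01 and -3.53 with members under 20 keratin UMIs. Against day 4 they were at least 2-fold higher for 14 of 17, 12 of 14, 12 of 14, 6 of 7 and 3 of 5, with relative medians of 2.56, 2.96, 3.63, 3.95 and 2.11. With members under 20 keratin UMIs these were 6 of 13, 5 of 11, 6 of 10, 3 of 4 and 2 of 4, and 0.60, 0.50, 1.50, 1.81 and 0.41. Leaving out the 137 keratin-rich members thus lowered all 5 medians against day 4. Against day 0 the relative medians of the 5 lists were 3.78, 5.24, 5.97, 6.89 and 5.04, and 2.00, 2.74, 4.68, 4.00 and 5.03 with members under 20 keratin UMIs. The day 4 and day 0 cells were limited to fewer than 5 keratin UMIs and the members were not. These differences thus follow in part from the rule and are a description. With members under 5 keratin UMIs, the medians were 0.59, 0.46, 1.34, 1.83 and 0.72 against day 4. Against day 0 they were then 1.93, 2.81, 4.45, 4.02 and 4.07.

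Epithelial genes were also among the lowest ratios against the other day 8 cells. IVL (involucrin), of the horny envelope of skin cells, was 7.43-fold lower (5.75 to 9.77), CSTA (cystatin A) 5.79-fold lower (4.89 to 6.92) and S100A9, a calcium-binding protein, 5.33-fold lower (5.01 to 5.68). In members under 20 keratin UMIs alone they were 20.3-fold lower (11.9 to 38.2), 31.5-fold lower (19.1 to 56.2) and 14.8-fold lower (12.9 to 16.9).

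**Figure D5:**
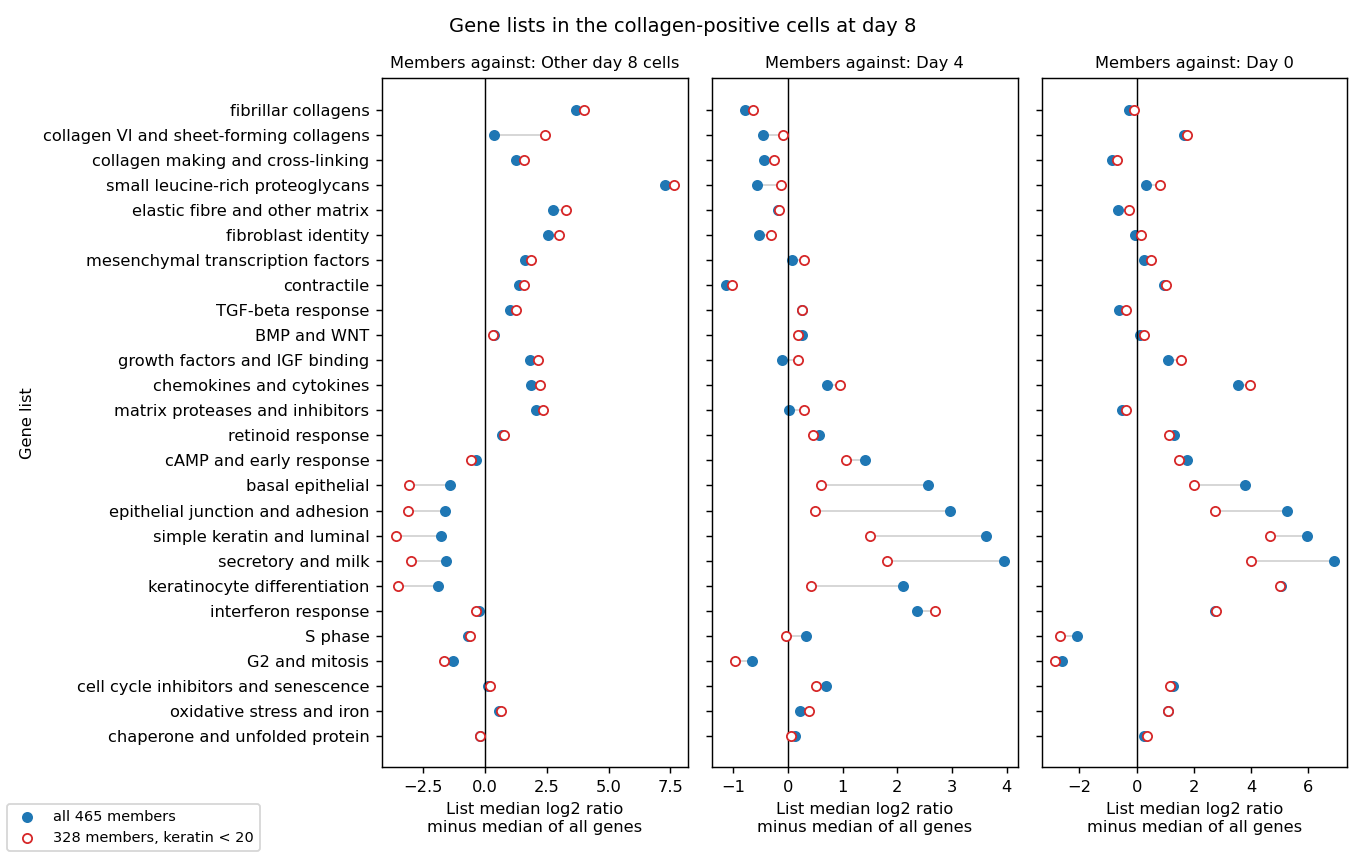
For each gene list, points give the median log2 ratio of the members minus the median of all genes compared, against the other day 8 cells, day 4 and day 0; filled points use all 465 members and open points the 328 members under 20 keratin UMIs. Between filled and open points the luminal list goes from 3.63 to 1.50 against day 4, and the interferon list lies near 0 against the other day 8 cells and above 2 against day 4 and day 0.

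Lists of signalling and protein handling gave smaller medians. TGF-beta response genes had relative medians of 1.02, 0.25 and -0.60 against the other day 8 cells, day 4 and day 0, with 12 of 22 at least 2-fold lower than at day 0 and 3 higher. IL11, a cytokine that TGF-beta induces in fibroblasts, stood at 3.66 CPM against 901 at day 0, 246-fold lower (165 to 384). TNFRSF12A, the receptor for TWEAK, was 45.1-fold lower (37.9 to 54.1) than at day 0. TGFB2 went the other way, 11-fold higher (8.23 to 14.6).

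BMP and WNT genes had relative medians of 0.36, 0.26 and 0.13. WNT5A, a non-canonical WNT ligand, stood at 96.7 CPM in the members, 13.7 in the other day 8 cells, 70.6 at day 4 and 1005 at day 0, and GREM1, a BMP antagonist, at 2.59 CPM in the members, 0.176 in the other day 8 cells, 3.31 at day 4 and 116 at day 0. BAMBI, a decoy receptor for BMP and TGF-beta, stood at 60 CPM in the members, 1.85 in the other day 8 cells, 42.9 at day 4 and 9.34 at day 0. Proteases of the matrix and their inhibitors had relative medians of 2.07, 0.02 and -0.52, with MMP2, a gelatinase, at 1008 CPM in the members, 11.7 in the other day 8 cells, 1463 at day 4 and 875 at day 0. Chaperone and unfolded protein genes had relative medians of -0.22, 0.12 and 0.26, and CALR, a chaperone of the endoplasmic reticulum, was 3.93-fold lower (3.73 to 4.14) than at day 0.

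Markers of other cell types were mostly low, apart from genes of the pericyte, adipocyte and cartilage lists. Of the endothelial markers listed, 7 of 11 were at 0 in the members, PECAM1, KDR and FLT1 among them. The summed level was 50.5 CPM in the members, 14.7 in the other day 8 cells, 61 at day 4 and 183 at day 0. Only 1 endothelial gene reached the minimum level against the other day 8 cells, with a relative value of 2.27. Of the immune markers 5 of 13 were at 0, CD3E and CSF1R among them, with summed levels of 36.5 CPM in the members, 31.5 in the other day 8 cells, 32.7 at day 4 and 47.3 at day 0. The pericyte list, with 2 of 10 at 0, summed to 171 CPM in the members, 145 in the other day 8 cells, 159 at day 4 and 209 at day 0, and its highest gene was NOTCH3 at 69 CPM. Of the pericyte genes compared, 4 of 7 were at least 2-fold higher and 1 lower than in the other day 8 cells (relative median 1.35). Against day 0 4 of 6 were higher and 2 lower (relative median 2.46), and against day 4 1 and 1 (-0.28). The contractile list had relative medians above 0 in the same 2 comparisons, and the part of pericytes in this was not tested. The adipocyte list had 5 of 19 at 0, PPARG among them, and FABP5, which epithelia also hold, made up most of its 394 CPM against 1174 in the other day 8 cells. This list summed to 261 CPM in members under 20 keratin UMIs and 596 in those at 20 or more.

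Cartilage and bone markers had 3 of 14 at 0, ACAN among them, and summed to 185 CPM in the members, 461 in the other day 8 cells, 34.2 at day 4 and 70.4 at day 0, with SOX9 at 157 CPM in the members as the highest gene. The sum was 92.8 CPM in members under 20 keratin UMIs and 326 in those at 20 or more. Schwann cell and melanocyte markers had 5 of 12 at 0, SOX10 among them. They summed to 76.4 CPM in the members, 52.8 in the other day 8 cells, 93.3 at day 4 and 207 at day 0. Of 5 such genes compared with the other day 8 cells, 3 were at least 2-fold higher and 2 lower (relative median 1.67). Against day 4 and day 0 their relative medians were -1.28 and -1.73, over 3 genes each. Skeletal muscle markers had 6 of 11 at 0, PAX7 and ACTA1 among them, and summed to 45.6 CPM in the members, 75.7 in the other day 8 cells, 41.9 at day 4 and 34.4 at day 0. Fewer cells of a type and less RNA per cell cannot be told apart in such sums.

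Shares of cells with a UMI were compared at equal depth, with each cell thinned to 3000 UMIs, which left out 8 of the other day 8 cells and 1 day 4 cell. PRRX1 was found in 92% (89.2 to 94.3) of the members, in 3.16% of the other day 8 cells, in 97.6% at day 4 and in 92.6% at day 0. LUM was found in 71.8% (67.5 to 75.9) of the members against 1.3%, 75.8% and 84.1%. Free RNA was not measured, and its part in these shares was not tested. COL6A2 was found in 19.4% of the members and in 92.8% at day 0. Without thinning, PRRX1, LUM and COL6A2 were found in 99.6%, 96.3% and 60.6% of the members, at a median of 13222 UMIs against 8957 in the other day 8 cells.

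Of the members under 20 keratin UMIs, 3.96% (2.13 to 6.68) held a UMI of EPCAM, an epithelial adhesion molecule, and 1.22% (0.333 to 3.09) one of CDH1 (E-cadherin), against 19.7% and 16.8% of the keratin-rich members, 36.9% and 16.6% of the other day 8 cells and 1.18% and 0.517% at day 4. Unthinned, EPCAM was found in 13.4% and 66.4% of the 2 kinds of member. ISG15 was found in 48.8% (44.2 to 53.5) of the members, 43.1% of the other day 8 cells, 1.03% at day 4 and 6.8% at day 0.

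Clustering of the 465 members alone gave 3 numbered clusters, which were left unnamed. Cluster 1 held 148 members, 136 of them with 20 or more keratin UMIs, and its leading genes were GATA3, EFNA5 and TRIM29. Cluster 2 held 190 members and cluster 3 held 127, with 1 and 0 such cells. These 2 had nearly the same median UMIs, 11679 and 11667, against 18299 in cluster 1. The clusters were made from the genes that describe them, so their genes are given with no test.

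Secreted proteins were among the leading genes of cluster 2. FGF7 stood there at 679 CPM against 232 in the other members, MGP at 1666 CPM against 595 in the other members and CFB at 74.2 CPM against 25.2 in the other members. Contractile genes were among those of cluster 3, with ACTA2, the smooth muscle actin of activated fibroblasts, at 1986 CPM against 645 in the other members, CNN1 at 363 CPM against 117 in the other members and MYH11 at 84.4 CPM against 17.6 in the other members. COL14A1 and ASPN were also among its leading genes, at 162 CPM against 52.5 in the other members and 50.1 CPM against 16.2 in the other members. Summed over whole lists, the other fibrillar collagens stood at 583 CPM in cluster 2 and 782 in cluster 3, growth factors at 4591 and 4815, small leucine-rich proteoglycans at 1794 and 1594, and chemokines and cytokines at 9320.2 and 6818. TMEM100 and SULF1, a membrane protein and a heparan sulphatase, stood at 182 CPM against 69.3 in the other members and 197 CPM against 83.9 in the other members in cluster 2.

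Sorted by the share of their UMIs that the 3 collagens took, the members were cut into 3 sets of 155 cells whose median shares were 0.118%, 0.215% and 0.368%. At least 20 keratin UMIs were held by 91 cells of the lowest set, 33 of the middle and 13 of the highest. LUM stood at 333, 575 and 723 CPM in the lowest, middle and highest set, PRRX1 at 937, 1506 and 1900.2 CPM and ACTA2 at 564, 883 and 1592 CPM. KRT19 stood at 1111, 543 and 311 CPM. The summed interferon list, which was mostly IFI6 in the members, stood at 7986, 7893 and 8443 CPM in the same order.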

How the data were processed

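The deposited tables held UMI counts per gene and cell, 1 table for each group; Cell Ranger and FastQC 0.10.1 are listed in the processing notes of the submitters, and the Cell Ranger version, genome build and annotation were not given in the sources used here. The samples of a group were pooled in its table with no map from cells to samples, and 0 columns belonged to no sample. Counts were summed over the cells of a group and scaled to a common total of 1000000 UMIs (CPM). Genes with at least 10 CPM in 1 of 2 groups were compared, and a gene was called at a ratio of 4-fold. Ratios carry conditional binomial intervals, levels exact Poisson and shares Clopper-Pearson intervals, all at 95% and for counting error only. Genes listed at 0 were taken at 3 counts and genes not listed at 11. The 11 comes from a number of cells and not of UMIs, so a ratio with a gene not listed is no strict bound. No test was run, since each group was 1 library.

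The 12 highest and 12 lowest ratios were named, over genes that have a symbol and reached 50 CPM in 1 group, with up to 4 genes per list, any list gene 2-fold against the sign of its list, and the 3 collagens, KRT5 and KRT14. ACTA2, EPCAM, CDH1 and the leading genes of the clusters were named after their values were seen. The members and the 33 gene lists were chosen with earlier results of these data known. Doublet scores came from Scrublet in scanpy, whose own limits marked 0 cells at day 8, 1 at day 0 and 416 at day 4. Members were clustered on 2000 variable genes and 20 components. Python 3.11.15, numpy 2.4.6, scipy 1.17.1, pandas 2.3.3, scanpy 1.11.5 and, for scaling factors only, edgeR 4.0.16 and DESeq2 1.42.0 in R 4.3.3 were used. The code of the comparison was checked on simulated Poisson counts with known ratios and known scaling. These counts held no variation between cells or libraries, so the check says nothing about either in these data. Median depth was 13222 UMIs in the members. No sequences are given.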

Additional observations from a re-analysis of the deposited data

Results flagged for a closer look

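In the CiMECs table, which holds the passaged induced cells and was not part of the comparisons, 4 of 5188 cells (0.0771%, 95% Clopper-Pearson interval 0.0210 to 0.197) held at least 10 UMIs of COL1A1, COL1A2 and COL3A1. They are given here because they are a signal outside the compared tables. These 4 cells held 708 of the 722 collagen UMIs of that table, and no other cell held more than 1. Their totals ran from 20542 to 35461 UMIs. Among GMECs, 0 of 5641 cells passed the same limit, but this count is not a measurement. Every gene listed in the GMECs table had UMIs in at least 6 cells, and COL1A1, COL1A2 and COL3A1 had 0 UMIs there. These genes were therefore not listed, and cells that held them could not be seen. No share of collagen-positive GMECs, and no upper limit for it, can be given.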

How the results depend on the processing

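All comparisons rest on 1 pooled table per group, so leaving out a replicate was not possible. No paired analysis was possible because each group is 1 pooled table without replicate columns. The planned removal of called doublets was not run, since the caller marked 0 cells at day 8; the limits of 20 keratin UMIs and of the day 4 doublet score were chosen after seeing the data. The cause of the shifts below was not tested.

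Genes lower than in the other day 8 cells (177 as reported) numbered 293 with a limit of 20 collagen UMIs, 352 with collagen at 0.1% of UMIs or more, 749 and 696 with members under 5 and under 20 keratin UMIs, 454 without cells over 2 times the median UMIs, 348 without cells over the day 4 doublet score, 89 with TMM, 91 with median-of-ratios factors, 110 with totals that left out genes over 1% of UMIs, and 333 with the mean of each cell's CPM. Against day 4 (289 higher and 9 lower as reported), 5 were lower with 20 collagen UMIs, 104 were higher and 15 lower with members under 5 keratin UMIs, 101 were higher with members under 20, 80 with all groups under 20, 192 without cells over 2 times the median UMIs and 106 with no keratin limit at day 4, and 14 were lower with totals that left out genes over 1% of UMIs. With no CPM minimum, 886 and 501 genes were higher and lower than in the other day 8 cells, 1145 and 62 than at day 4, and 2038 were higher than at day 0. With 50 CPM these were 157 and 66, 96 and 1, and 290 and 438. With a 2-fold limit they were 710 and 1082, 772 and 124, and 1442 and 2934.

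The members made up 3.31% of the day 8 table with 20 collagen UMIs, 4.12% with collagen at 0.1% of UMIs, 1.21% under 5 keratin UMIs and 3.23% under 20, against 4.58% as reported. List medians are given here without the subtraction of the median of all genes. Of 87 list medians 21, and of 486 ratios of named genes 12, had the other sign under at least 1 setting. The largest of these in the main setting were 2.21 and 2.31 in size. Among list medians of at least 2-fold and genes of at least 4-fold this held in 4 cases: the Schwann cell and melanocyte list had medians of 0.14 against day 4 and 0.98 against day 0 with no CPM minimum, the type VI and sheet-forming collagen list -2.48 against day 0 with 50 CPM, and COL17A1 -0.16 against day 4 with members under 5 keratin UMIs. The lists that crossed 0 included BMP and WNT, retinoid and oxidative stress genes against the other day 8 cells and fibrillar collagens, TGF-beta response and growth factors against day 4. The other 58 counts and shares stayed within their limits of change, as did 7850 values of lists, genes and shares, while 740 moved by more.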
